A study of Mus musculus with 4 samples.

Results

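Cytotoxic granule release was examined through 10 genes in bone marrow natural killer (NK) cells: Rab27a, Unc13d, Stx11, Stxbp2, Lyst, Lamp1, Lamp2, Vamp7, Vamp8 and Nkg7. Rows were taken by gene symbol from the deposited tables of 37310 genes. Each of 9 symbols matched 1 row, and Vamp7 matched none and is not analysed here. All 9 matched genes passed the filter on low counts and were among 13904 tested genes. The sort took NK1.1+ CD49b+ cells without CD3e from C57BL/6 mice aged 6 to 8 weeks, and the libraries followed Smart-seq2, which copies full-length cDNA. The dKO group (2 libraries) came from mice with the genotype Gabpb1l-/-Gabpb2-/-, which lack the GABPα2β2 tetramer, and the Ctrl group (2 libraries) from littermates. GABP is an Ets-family transcription factor made of a DNA-binding alpha chain and a beta chain. The sources used here give neither the alleles of the Ctrl mice nor the tissues that carry the deletion.

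NK cells kill by releasing perforin and granzymes from cytotoxic granules, which are modified lysosomes. A granule moves to the contact with the target cell, is docked by the GTPase Rab27a with Munc13-4 (the product of Unc13d), and fuses when SNARE proteins of the granule and the cell surface zip together. Inherited loss of RAB27A, UNC13D, STX11, STXBP2 or LYST in people impairs this release and is a known cause of haemophagocytic disease.

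Gene counts summed to between 30233870 and 34724516 per library. The whole-number counts were close to double the RSEM fragment estimates (median ratio 2.05 to 2.07), so counting error was taken from the fragment estimates. Reads assigned to no counted feature made up 18.1% and 21.5% of the total in the Ctrl pair, against 23.8% and 24.3% in the dKO pair. At least 1 count was seen for 15921 and 18206 genes in the Ctrl pair, against 19450 and 19220 in the dKO pair. Both measures thus separated the groups, and their part in the results was not tested. Gabpb2 had 33.5 ± 4.34 CPM (counts scaled to an equal library size; SD, n = 2) in Ctrl against 2.75 ± 0.142 CPM in dKO. Gabpb1 was not lower in dKO: it had 54.6 ± 3.60 CPM in Ctrl against 80.3 ± 1.25 CPM in dKO (SD, n = 2), with a log2 fold change of 0.56 that did not pass (edgeR adjusted p = 0.273). These are counts over the whole gene and do not show the Gabpb1l form by itself, so they do not check its loss. Gabpa, the alpha chain gene, had 81.2 ± 0.548 CPM in Ctrl against 99.96 ± 2.23 CPM in dKO (0.30, edgeR adjusted p = 0.578). The 10 NK identity markers, among them Ncr1 and Klrb1c, were all measured and none passed the test, with a summed level of 14868 to 15031 CPM over the Ctrl pair and 13185 to 13556 CPM over the dKO pair. Xist averaged 186 CPM in Ctrl against 0.180 CPM in dKO, and Y-linked Ddx3y had 0 counts in Ctrl and 251 CPM in dKO. The groups therefore differ in sex-linked transcripts as well as in genotype, and these cannot be told apart in any comparison here.

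None of the 9 genes passed the test between dKO and Ctrl (edgeR quasi-likelihood test, adjusted p under 0.05), where 0.611% of all tested genes passed. Without adjustment, 3 of the 9 had p under 0.05 (Lamp1, Nkg7 and Lyst), against 10.6% of all tested genes. DESeq2 called 1 of the 9, Lamp1, and 395 of all 13904 tested genes. The same 3 genes were those whose groups did not overlap in CPM, a separation seen in 41.6% of tested genes. The 9 log2 fold changes (dKO minus Ctrl) had a median of -0.04, with 4 positive and 5 negative, beside a median of 0.01 over all tested genes. In bulk samples, fewer cells that carry a transcript and less of it per cell cannot be told apart.

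Levels were compared between genes as TPM (a share of all transcripts scaled to transcript length, by the authors with RSEM). Nkg7, which encodes a small membrane protein of cytotoxic granules, had the highest TPM in all 4 libraries, with a mean of 2527 TPM. It made up 82.3% and 80.3% of the summed TPM of the 9 genes in Ctrl 1 and Ctrl 2, and 71.8% and 73.8% in dKO 1 and dKO 2. Stxbp2, the gene of Munc18-2, a chaperone of syntaxin-11, came next with 283 TPM, and its range over the 4 libraries did not meet that of Nkg7 or Lamp1. Lamp1 (145 TPM) and Rab27a (98.0 TPM) followed with overlapping ranges. Unc13d (64.5 TPM), Lamp2 (51.5 TPM) and Vamp8 (44.8 TPM) formed a middle group in which each range overlapped with the next. Stx11 (22.6 TPM) and Lyst (18.0 TPM) were lowest, and their ranges overlapped too. The mean of Nkg7 was 140.3 times that of Lyst. The order among all 9 genes differed between libraries only by swaps of neighbours: Lamp1 was below Rab27a in Ctrl 2, Lamp2 was above Unc13d in Ctrl 2 and below Vamp8 in dKO 1, and Lyst was above Stx11 in dKO 1.

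**Figure D1:**
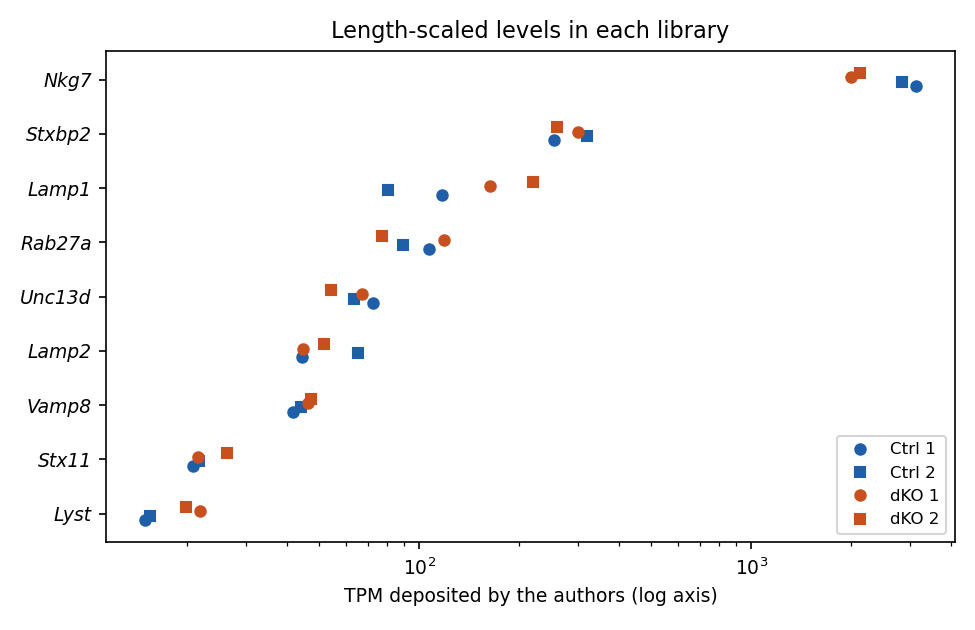
TPM deposited by the authors for each of the 9 genes (rows) on a log axis, with 1 point per library (blue Ctrl, orange dKO; circles replicate 1, squares replicate 2). Nkg7 lies between 1999 and 3135 TPM, far to the right of Stxbp2, and Stx11 and Lyst are the lowest.

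Among the genes of the granule membrane, Lamp1 and Nkg7 stood apart between the groups in opposite directions. Lamp1 encodes a heavily glycosylated lysosomal membrane protein, known as CD107a, whose appearance at the cell surface is the usual sign that an NK cell has released its granules. Its level was 156 CPM in Ctrl 1, 100.4 CPM in Ctrl 2, 195 CPM in dKO 1 and 296 CPM in dKO 2. Both dKO libraries were above both Ctrl libraries, but the replicates of each group were far apart. The mean was 128 ± 39.6 CPM in Ctrl against 246 ± 71.4 CPM in dKO (SD, n = 2), a log2 fold change of 0.94 (SE 0.26, 95% interval 0.33 to 1.55), and the difference did not pass (edgeR adjusted p = 0.232). DESeq2 gave a log2 fold change of 0.93 with an adjusted p of 0.0185, and edgeR without the filter on low counts gave 0.93 with an adjusted p of 4.66e-05. The value depended on single libraries, with 1.29 when Ctrl replicate 1 was left out, 0.65 without Ctrl replicate 2, 1.21 without dKO replicate 1 and 0.60 without dKO replicate 2 (none of these 4 passed). The higher Lamp1 replicate was 1.56 times the lower in Ctrl and 1.52 times in dKO. Of the 8152 genes that averaged 10 CPM or more, 91.3% had closer Ctrl replicates and 91.7% closer dKO replicates than Lamp1. Counting error was 2.14% and 1.61% of the level, against an SD of 30.8% and 29.0%.

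Lamp1 (ENSMUSG00000031447) lies on chromosome 8 from 13159161 to 13175338 of GRCm38, and 249 of its exonic bases overlap exons of Grtp1 on the opposite strand. Grtp1 had only 45 to 76 counts per library, against 3331 to 8959 for Lamp1. The summed levels of markers of other cells that carry lysosomal transcripts overlapped between the groups, but some single markers did not. The summed level of 12 neutrophil markers was 2212 and 2857 CPM in the Ctrl pair, against 1413 and 2283 CPM in the dKO pair. That of 9 monocyte and macrophage markers was 1579.5 and 1767 CPM in the Ctrl pair, against 1331 and 1791 CPM in the dKO pair. Neither list held a called gene (edgeR) or a marker at 0 in all libraries; 3 neutrophil markers (Elane, log2 fold change -1.99; Mpo, -1.97; Prtn3, -1.75) and 1 monocyte and macrophage marker (Ly6c2, -1.26) had an unadjusted p under 0.05. All 4, named after their values were seen, had lower levels in both dKO libraries than in both Ctrl libraries (edgeR adjusted p 0.0994 to 0.284), whereas Lamp1 was higher. The 3 neutrophil markers were far higher in Ctrl 1 than in Ctrl 2. Mpo had 348 and 104 CPM in the Ctrl pair, against 59.7 and 55.5 CPM in the dKO pair. Elane had 106 and 39.4 CPM against 20.9 and 15.7 CPM, and Prtn3 had 49.7 and 12.8 CPM against 8.25 and 10.4 CPM. Ly6c2 had 347 and 349 CPM against 104 and 187 CPM. The groups did not overlap for 3 of the 12 neutrophil markers. The part of these 4 markers in the Lamp1 values was not tested. Lists of B lineage (8 tested genes), basophil and mast cell (6), erythroid (8), megakaryocyte and platelet (3) and plasmacytoid dendritic cell (5) markers held no call in edgeR either. They had 3, 0, 0, 1 and 1 genes at an unadjusted p under 0.05, against 10.6% of all tested genes.

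Nkg7 had 1114 CPM in Ctrl 1, 969 CPM in Ctrl 2, 641 CPM in dKO 1 and 770.4 CPM in dKO 2. Both dKO libraries were below both Ctrl libraries. The mean was 1041 ± 103 CPM in Ctrl against 706 ± 91.2 CPM in dKO (SD, n = 2), a log2 fold change of -0.56 (SE 0.16, 95% interval -0.94 to -0.19) that did not pass (edgeR adjusted p = 0.253). Without the filter on low counts the adjusted p was 0.0337, and with DESeq2 it was 0.0855. Leaving out 1 library moved the log2 fold change between -0.70 and -0.43. In proportion to Prf1, the perforin gene, Nkg7 was at 0.660 and 0.562 in Ctrl and 0.530 and 0.648 in dKO, so the ratios of the groups overlapped. Prf1 was itself lower in both dKO libraries (log2 fold change -0.51, edgeR adjusted p = 0.224), so it is not a steady reference. In proportion to Ncr1, the gene of the NK receptor NKp46, Nkg7 was at 0.621 and 0.681 in Ctrl and 0.461 and 0.545 in dKO, which did not overlap. Ncr1 was also lower in both dKO libraries, by less (-0.20, edgeR adjusted p = 0.756). Nkg7 (ENSMUSG00000004612) lies on chromosome 7 from 43437073 to 43438249 of GRCm38.

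Late NK maturation markers were, as a sum, also lower in both dKO libraries. Their summed level over 6 genes was 840.3 and 725 CPM in the Ctrl pair, against 389 and 364 CPM in the dKO pair, and 4 of the 6 (Klrg1, Cx3cr1, Zeb2 and Cma1) fell by edgeR (2 of the 6 without dKO replicate 1). T cell markers summed to 952 and 871 CPM in the Ctrl pair, against 774 and 686 CPM in the dKO pair, with Cd3e and Trac lower past the threshold among 10 tested, although the sort was on cells without CD3e. The part of either list in the Nkg7 values was not tested.

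Lamp2 encodes the other major lysosomal membrane glycoprotein and lies on the X chromosome from 38401357 to 38456454 of GRCm38 (ENSMUSG00000016534). It had 63.2 CPM in Ctrl 1, 79.4 CPM in Ctrl 2, 54.6 CPM in dKO 1 and 71.1 CPM in dKO 2. The groups overlapped, with a log2 fold change of -0.18 (95% interval -0.66 to 0.30, edgeR adjusted p = 0.839). Lamp1 was thus at 2.63 and 1.23 times the TPM of Lamp2 in the Ctrl pair, against 3.67 and 4.24 times in the dKO pair. That ratio was higher in both dKO libraries than in both Ctrl libraries, and the Ctrl libraries alone differed by more than the dKO libraries did.

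**Figure D2:**
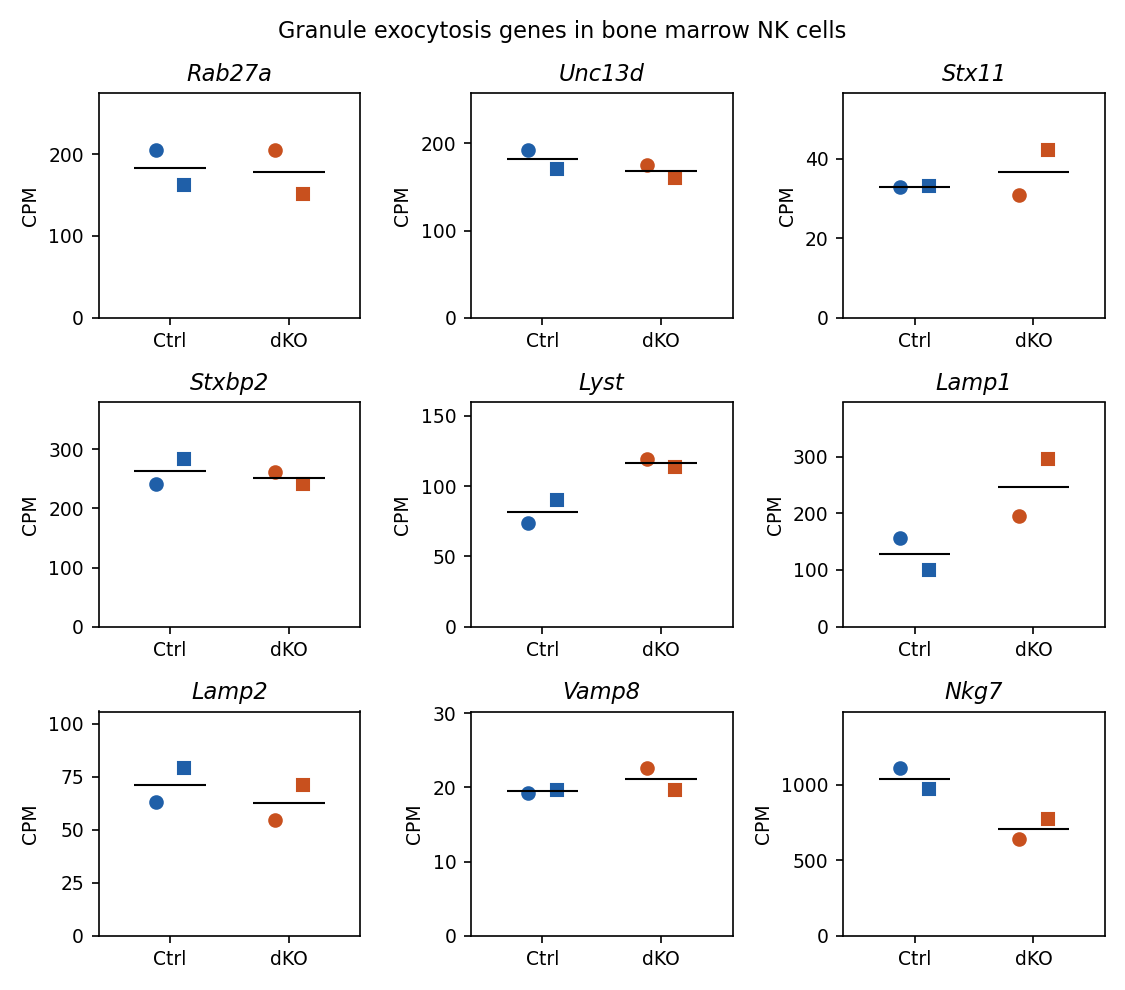
CPM of each gene (1 panel per gene, linear axis from 0) in the Ctrl (blue) and dKO (orange) libraries, with circles for replicate 1, squares for replicate 2 and a line at the group mean. The groups do not overlap for Lyst, Lamp1 and Nkg7, and overlap for the other 6 genes.

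Lyst encodes a very large BEACH-domain protein that controls the size and trafficking of lysosomes and granules, and its loss gives Chediak-Higashi syndrome and the beige mouse. It had 73.5 CPM in Ctrl 1, 90.4 CPM in Ctrl 2, 119.6 CPM in dKO 1 and 114 CPM in dKO 2. The dKO libraries lay close together and above both Ctrl libraries. The mean was 81.9 ± 11.9 CPM in Ctrl against 117 ± 4.32 CPM in dKO (SD, n = 2), a log2 fold change of 0.51 (SE 0.17, 95% interval 0.11 to 0.91) that did not pass (edgeR adjusted p = 0.336). No alternative brought Lyst past the threshold, with adjusted p between 0.190 and 0.728. The expression-weighted transcript length that RSEM gave for Lyst, which moves with the mix of its 3 listed transcripts, was 6285 and 7874 bases in Ctrl and 7439 and 6894 bases in dKO, so the spread was wider within Ctrl than between the groups. The gene (ENSMUSG00000019726) lies on chromosome 13 from 13590397 to 13778803 of GRCm38.

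The sequences upstream of Lamp1, Lyst and Nkg7 are shown because their groups did not overlap and because the mice lack subunits of a factor that binds promoter DNA. They come from RefSeq (GRCm38.p6), are written 5′ to 3′ on the gene's strand, and stop before the first annotated transcript base. Capitals mark CACGTG, the E-box shared by many lysosomal genes.
Lamp1, chr8:13158911-13159160 (plus strand): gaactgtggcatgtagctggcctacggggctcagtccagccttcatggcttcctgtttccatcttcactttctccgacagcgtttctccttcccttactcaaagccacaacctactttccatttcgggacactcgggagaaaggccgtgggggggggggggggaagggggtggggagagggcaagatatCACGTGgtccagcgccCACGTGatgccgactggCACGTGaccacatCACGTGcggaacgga
Lyst, chr13:13590159-13590396 (plus strand): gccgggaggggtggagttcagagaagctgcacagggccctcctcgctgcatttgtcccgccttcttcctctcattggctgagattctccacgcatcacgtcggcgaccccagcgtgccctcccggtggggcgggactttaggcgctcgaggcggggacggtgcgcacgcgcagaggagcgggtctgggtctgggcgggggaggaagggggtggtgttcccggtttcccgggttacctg
Nkg7, chr7:43436888-43437072 (plus strand): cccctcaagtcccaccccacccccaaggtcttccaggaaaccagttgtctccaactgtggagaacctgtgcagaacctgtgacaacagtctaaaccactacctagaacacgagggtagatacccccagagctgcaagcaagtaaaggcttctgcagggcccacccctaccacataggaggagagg
The window searched was 300 bases, from 250 before to 50 after each RefSeq start, on both strands, and 8 of the 9 genes had at least 1 window in the table (Unc13d had none). The GABP-type Ets motif CCGGAAGT was in none of the windows of these 8 genes, and it was in 3.89% of all 32851 windows. The longer form CCGGAAGTG, which contains the shorter one, was in 2.03% of all windows. Lamp1 held 4 CACGTG matches, all within 61 bases of the start. At least 4 matches anywhere in the window were seen in 0.0244% of windows, and at least 1 in 7.15%; the share with matches this close to the start was not counted. Stxbp2 held 1 match and Rab27a held 1 in the second of its start windows. These matches describe the letters of the windows and say nothing of binding in these cells.

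The docking and priming genes had overlapping groups. Rab27a encodes the small GTPase that tethers granules to the plasma membrane. It had 205 CPM in Ctrl 1, 162 CPM in Ctrl 2, 206 CPM in dKO 1 and 152 CPM in dKO 2. Each group held a high and a low library of nearly the same level, and the log2 fold change was -0.04 (95% interval -0.50 to 0.42, edgeR adjusted p = 0.977). In GRCm38 a processed pseudogene, Gm27186, overlaps 149 of its exonic bases on the same strand. Unc13d, whose product Munc13-4 primes docked granules for fusion, had 193 CPM in Ctrl 1, 170.4 CPM in Ctrl 2, 176 CPM in dKO 1 and 159.9 CPM in dKO 2. Its groups overlapped, with a log2 fold change of -0.11 (95% interval -0.47 to 0.24, adjusted p = 0.873 by edgeR).

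The SNARE genes and that of their chaperone overlapped between the groups too. Stx11 encodes a syntaxin of the plasma membrane side, and had 32.8 CPM in Ctrl 1, 33.2 CPM in Ctrl 2, 30.8 CPM in dKO 1 and 42.3 CPM in dKO 2. The Ctrl libraries lay between the dKO libraries, with a log2 fold change of 0.15 (95% interval -0.36 to 0.66, edgeR adjusted p = 0.886). Stxbp2 had 241 CPM in Ctrl 1, 284 CPM in Ctrl 2, 261 CPM in dKO 1 and 242 CPM in dKO 2, and both dKO libraries lay inside the Ctrl range. Its log2 fold change was -0.06 (95% interval -0.42 to 0.30, edgeR adjusted p = 0.942). Vamp8 encodes a SNARE of the vesicle side. It had 19.3 CPM in Ctrl 1, 19.7 CPM in Ctrl 2, 22.7 CPM in dKO 1 and 19.7 CPM in dKO 2, a log2 fold change of 0.12 (95% interval -0.39 to 0.63, edgeR adjusted p = 0.912). Each gene's own interval limits what 2 libraries a group could resolve: that of Unc13d allows dKO levels from 0.720 to 1.18 times those of Ctrl and that of Stxbp2 0.746 to 1.23 times, while the ends over these 5 genes and Lamp2 were 0.632 (Lamp2) and 1.58 (Stx11).

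**Figure D3:**
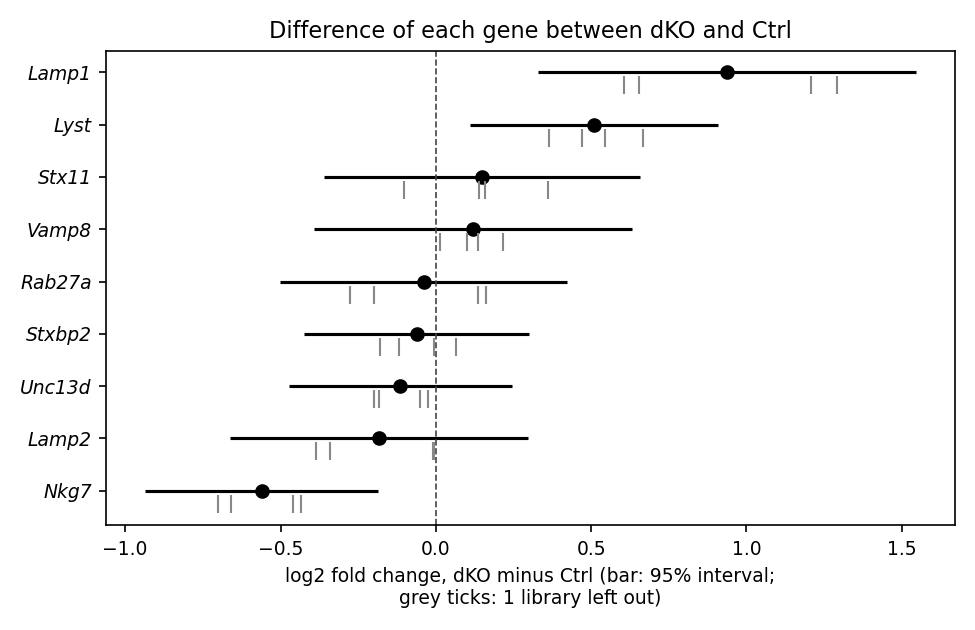
Log2 fold change of each gene, dKO minus Ctrl (points), with its 95% interval (bars) and the values with 1 library left out (grey ticks). Lamp1 is highest at 0.94 and Nkg7 lowest at -0.56, and the grey ticks of Rab27a, Stx11 and Stxbp2 lie on both sides of 0.

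The wider granule pathway was read from 6 further lists. Genes of granule biogenesis and transport, which sort cargo into lysosome-related organelles and carry them along microtubules, held the only calls: 2 of 36 rose and 0 fell (edgeR), with a median log2 fold change of 0.05. The shares of all tested genes were 0.316% higher and 0.295% lower. Both encode subunits of BLOC-1, a complex that sorts proteins from endosomes to lysosome-related organelles. Cno, the older symbol of Bloc1s4, had 2.29 CPM in Ctrl 1, 1.90 CPM in Ctrl 2, 21.3 CPM in dKO 1 and 30.7 CPM in dKO 2. It rose by 3.63 on the log2 scale (SE 0.32, edgeR adjusted p = 0.00373), and passed under every alternative run. Bloc1s3 had 2.85 CPM in Ctrl 1, 0.964 CPM in Ctrl 2, 14.2 CPM in dKO 1 and 16.8 CPM in dKO 2. It rose by 3.02 on the log2 scale (SE 0.49, edgeR adjusted p = 0.0465), close to the threshold, and missed it without dKO replicate 2 (2.89, adjusted p = 0.0701).

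The other 6 BLOC-1 genes did not pass. Snapin had 138 and 150.4 CPM in the Ctrl pair, against 176 and 155 CPM in the dKO pair (log2 fold change 0.20, edgeR adjusted p = 0.745), and Pldn, the older symbol of Bloc1s6, had 83.2 and 79.7 CPM in the Ctrl pair, against 89.3 and 88.7 CPM in the dKO pair (0.13, adjusted p = 0.856). Bloc1s1 (0.09), Bloc1s2 (0.40), Muted (0.04) and Dtnbp1 (-0.59) had adjusted p between 0.651 and 0.985 (edgeR). In Ctrl 1, Bloc1s1 had 51 counts against 335 RSEM fragments, and Bloc1s2 had 99 against 5. The median ratio of counts to fragments in that library was 2.05, so the values of both genes rest on counts that RSEM does not match. In GRCm38 Cno lies on chromosome 5 from 36747378 to 36748650, with 33 exonic bases shared with the antisense gene Gm43701, and Bloc1s3 on chromosome 7 from 19504486 to 19508367 with no overlapping gene.

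**Figure D4:**
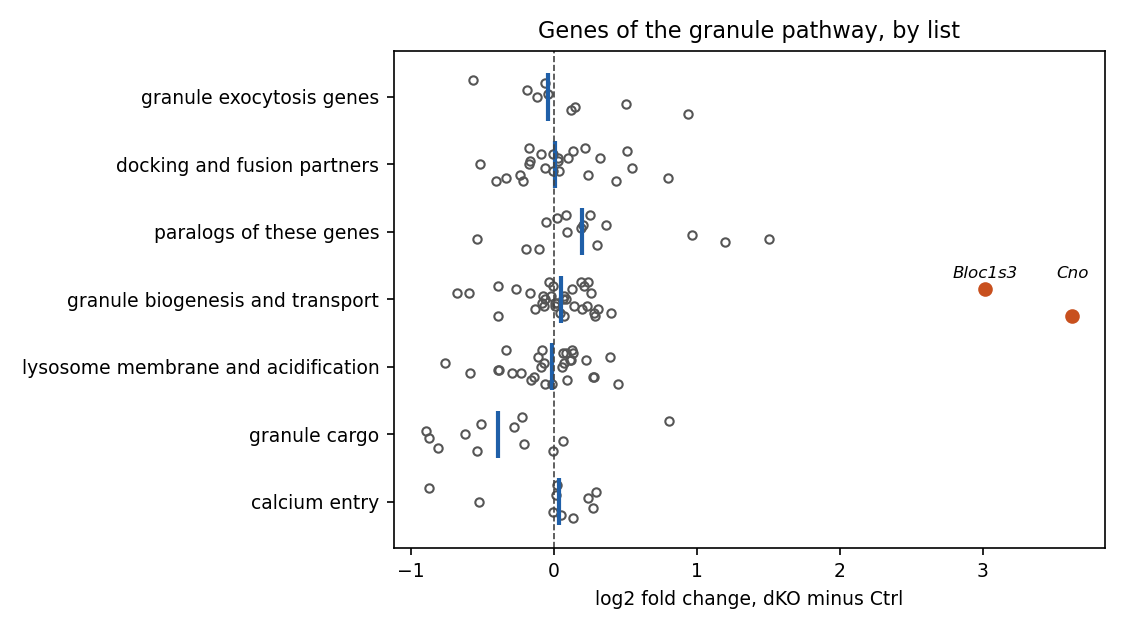
Log2 fold change (dKO minus Ctrl) of every tested gene in the granule lists (open circles did not pass, filled orange circles passed in edgeR), with a blue line at each list's median. Only Cno (3.63) and Bloc1s3 (3.02) are filled, and granule cargo has the lowest median (-0.39); Unc13b, with 0 counts in Ctrl, is not drawn.

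The other 5 lists held no call among 91 tested genes (edgeR), where 0.611% of all tested genes passed. Of the 91, 15 had an unadjusted p under 0.05, against 10.6% of all tested genes. DESeq2 called 5 of the 91, and 395 of all 13904 tested genes. Of the 24 tested docking and fusion partners, 12 had positive and 12 negative log2 fold changes (median 0.01). Vamp2, a vesicle SNARE, had 65.3 and 70.2 CPM in the Ctrl pair, against 142 and 93.7 CPM in the dKO pair (log2 fold change 0.80, edgeR adjusted p = 0.220), and the secretory GTPase gene Rab3d had 122 and 126 CPM in the Ctrl pair, against 172 and 183 CPM in the dKO pair (0.51, adjusted p = 0.255). Among 16 tested paralogs, 12 were positive, with a median log2 fold change of 0.20 that was the same with Unc13b at the bound set by a floor of 3 counts. Rab27b, the close relative of Rab27a, had 21.5 and 24.0 CPM in the Ctrl pair, against 47.9 and 56.2 CPM in the dKO pair, and just missed the threshold (log2 fold change 1.20, SE 0.20, 95% interval 0.73 to 1.66, edgeR adjusted p = 0.0522). Vamp1 had 40.1 and 37.2 CPM in the Ctrl pair, against 80.3 and 70.8 CPM in the dKO pair (0.97, SE 0.18, edgeR adjusted p = 0.0737). The groups of Rab27b and Vamp1 did not overlap, a separation seen in 5 of the 16 tested paralogs and in 41.6% of all tested genes. The ratio of these 2 paralogs to Rab27a or Vamp8 was not tested.

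Granule cargo had the lowest median of these lists, at -0.39, with 10 of 12 genes negative, against 48.4% of all tested genes. Of the 12, 6 had an unadjusted p under 0.05 (edgeR), against 10.6% of all tested genes. The groups did not overlap for 7 of the 12, against 41.6% of all tested genes. Serpinb9 is in this list as an inhibitor that protects the cell from its own granzyme B, not as a cargo protein. It had 1673 and 1915 CPM in the Ctrl pair, against 1053 and 909 CPM in the dKO pair (log2 fold change -0.87, SE 0.16, edgeR adjusted p = 0.0647). Gzma, the granzyme A gene, had 2074 and 1469 CPM in the Ctrl pair, against 822 and 1089 CPM in the dKO pair (-0.89, adjusted p = 0.1599). The 29 genes of the lysosome membrane and its proton pump had a median of -0.01. Atp6v1d, a proton pump subunit gene, had 208 and 228 CPM in the Ctrl pair, against 296 and 301 CPM in the dKO pair (0.45, edgeR adjusted p = 0.309). Tcfeb, the older symbol of Tfeb, a factor that switches on lysosomal genes, had 30.7 and 24.5 CPM in the Ctrl pair, against 18.3 and 14.2 CPM in the dKO pair (-0.76, edgeR adjusted p = 0.306). The 10 calcium entry genes, which act upstream of fusion, had a median of 0.04. Plcg2 had 198 and 211 CPM in the Ctrl pair, against 151 and 134 CPM in the dKO pair (-0.52, edgeR adjusted p = 0.261), and Plcg1 had 1.80 to 3.67 CPM over the 4 libraries (-0.87, edgeR adjusted p = 0.567).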

How the data were processed

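Per the submitters' processing notes, the tools were DESeq2 1.32.0, HTSeq 0.6.1, RSEM 1.3.0, TopHat2 2.1.1, Trimmomatic 0.36 and FastQC 0.11.5, on build mm9; the sources used here give no parameters, annotation release or strand setting. Deposited for each sample were whole-number gene counts and, per the file headers, RSEM expected counts, TPM, FPKM and gene lengths in bases; these other values, and FPKM, entered no main test. Rows that name no gene (reads assigned to no counted feature, 18.1% to 24.3% of the total, and ambiguous reads, 2.20% to 2.34%) were left out.

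Counts were tested with edgeR 4.0.16 (robust quasi-likelihood F test, R 4.3.3) after TMM scaling and a minimum count of 10, with Benjamini-Hochberg adjustment over all tested genes. Each SE was derived from the fold change and its F statistic, and intervals use the fit's degrees of freedom. The procedure was tested on simulated data. An exact two-sided permutation test of 2 against 2 libraries cannot go below 0.333. The members and lists were chosen with earlier results of these data known. Names follow a rule: all members, GABP subunits, sex-linked checks, in each granule list the called genes or else the 2 with the smallest p, and in cell type marker lists only summed levels and called genes; the remaining names (the other BLOC-1 genes, Grtp1, Gm27186, Gm43701, Unc13b, Prf1 and Ncr1 as reference genes, Klrb1c, and the neutrophil and monocyte markers) were chosen after values were seen. Positions and overlaps are GRCm38 (GENCODE M21), matched by Ensembl identifier, and are not coordinates of the counting build. The series design calls the replicates biological.

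Alternatives were RLE and upper quartile scaling, a stricter filter (5 CPM in 2 libraries) and none, DESeq2 1.42.0, limma-voom (limma 3.58.1), a fit that is not robust, rounded RSEM expected counts, the replicate number as a block, an adjusted p of 0.1, and leaving out each library.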

Additional observations from a re-analysis of the deposited data

How the results depend on the processing

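The number of granule exocytosis genes called was 0 in edgeR and stayed 0 under the other scalings, the stricter filter, limma-voom, the fit that is not robust, RSEM counts, an adjusted p of 0.1 and each library left out (range 0 to 0); it was 2 without the filter on low counts (Lamp1, Nkg7) and 1 with DESeq2 (Lamp1). Changed genes numbered 85 in all, 559 without the filter, 148 with the stricter filter, 395 with DESeq2, 166 at an adjusted p of 0.1, and 73 to 187 with 1 library left out (187 without Ctrl replicate 2). Calls in the biogenesis and transport list were 2 throughout, except 1 without dKO replicate 2 (range 1 to 2). The 5 other granule lists together had 0 calls, 5 without the filter, 3 with the stricter filter, 5 with DESeq2, 3 with limma-voom, 3 with RSEM counts, 3 at an adjusted p of 0.1, and 0 to 1 with 1 library left out. Late NK maturation markers had 4 calls, and 6 without the filter. They had 5 with RLE scaling, the stricter filter, DESeq2, limma-voom, RSEM counts and an adjusted p of 0.1. The other alternatives that kept all libraries gave 4. The log2 fold change turned its sign for Rab27a (0.14 without Ctrl replicate 1 and 0.16 without dKO replicate 2; range -0.28 to 0.16), Stx11 (-0.10 without dKO replicate 2; range -0.10 to 0.36) and Stxbp2 (0.065 without Ctrl replicate 2; range -0.18 to 0.065). The other 6 genes kept their direction under all 13 alternatives. The cause of these differences was not tested. With the replicate number as a block, 100 genes were called in all and 0 of the 9. Deviations of same-numbered libraries correlated at -0.05, so the numbers show no pairing. Over the tested genes, log2 CPM correlated at 0.961 between the Ctrl libraries and at 0.973 between the dKO libraries. Ctrl 1 correlated with dKO 1 and dKO 2 at 0.948 and 0.950, and Ctrl 2 at 0.961 and 0.959. Ctrl 2 was thus about as close to the dKO libraries as to Ctrl 1. Counting error of the 9 genes was 0.767% to 5.47% of the level, against an SD between replicates of 0.792% to 30.8%.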
